A study of Homo sapiens with 2 samples.

Results

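The genes described here are 9 genes of plasminogen activation and of the protease-activated receptors, measured in AGS cells, an established line of epithelial cells grown from a human adenocarcinoma of the stomach. They are PLAT, PLAU, PLAUR, SERPINE2, SERPINB5, F2R, F2RL1, ST14 and PRSS12, and they were chosen by name. The platform annotation names 17 probe sets for 8 of them, out of 54675 probe sets and 19775 named genes on the array, and names none for F2RL1. Expression was measured on 2 one-colour Affymetrix arrays, 1 of cells labelled control and 1 of cells whose galectin-3 (gene LGALS3) had been knocked down by a small interfering RNA. This protein is a lectin that binds beta-galactosides. The comparison asks how expression changes with the silencing. The treatment of the control cells and the time after transfection were not given in the sources used here. Both arrays come from 1 cell line with no other agent in the labels, so the values describe that line. With 1 array per group there is no replicate spread, no difference below has a test, and the precision of every value is limited by how few arrays there are.

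Plasmin is a serine protease that dissolves fibrin and other matrix proteins. It is made from plasminogen by the tissue-type activator (PLAT) or by urokinase (PLAU), which is held on the cell surface by its receptor PLAUR, and serpins block these proteases by trapping them. Protease-activated receptors such as F2R and F2RL1 are G protein-coupled receptors that are switched on when a protease such as thrombin, trypsin or matriptase (ST14) cuts their outer end and bares a ligand that is part of the receptor itself. In carcinomas both systems are known for their part in invasion.

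The targeted gene was checked first. LGALS3 gave 20206.3 on the control array. The silenced array gave 2699.8, or 13.4% of that, and a log2 ratio of -2.90. No other of the 23611 probe sets measured on these arrays had a ratio as low. The other LGALS3 probe set gave 57.8 and 55.6, under the background floor described next. A signal was called measured when it was at or above a background floor on at least 1 array. The floor was the signal that 95% of the 135 probe sets for olfactory receptor genes, not known to be used by stomach cells, did not exceed on that array, 138.4 for the control and 109.5 after silencing. Lower signals were set to the floor, and a probe set above it on 1 array only then gives a bound, written as "at least". Log2 ratios are always silenced minus control, and 2-fold is a log2 ratio of 1. Probe sets of the same gene had log2 ratios that differed with an SD of 0.32, over the 4728 genes that had more than 1 above both floors. This is a spread between probes on the same RNA and not between cultures.

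Of the 17 probe sets, 6 were above both floors, 3 on 1 array only and 8 on neither. The measured genes were PLAT, PLAUR, SERPINB5, ST14 and PRSS12. PLAU, SERPINE2 and F2R were under the floor with every probe set on both arrays. After silencing, PLAT and PLAUR were higher by 2-fold or more and PRSS12 was lower by 2-fold or more, while SERPINB5 and ST14 stayed short of 2-fold. That is 2 of 5 measured genes higher and 1 lower, beside 3.31% and 3.07% of all 10514 measured genes, and 6.38% in either direction. Each of PLAT and PRSS12 was above the floor only on the array where it is higher. Of all measured genes, 935 were above the floor on 1 array only. The 9 genes were named with earlier results of these arrays known, so these shares are a description.

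**Figure D1:**
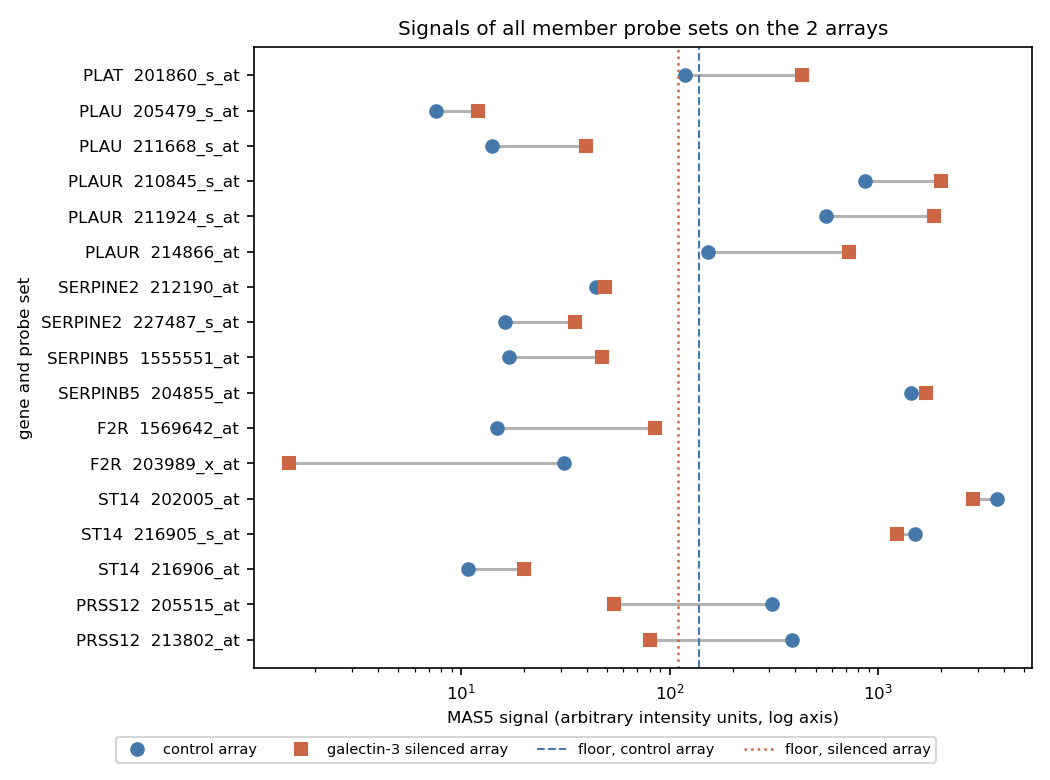
Signal of each of the 17 probe sets on the control array (circles) and the galectin-3 silenced array (squares), on a log axis, with each array's background floor as a vertical line. The 3 PLAUR probe sets lie to the right on the silenced array, both PRSS12 probe sets cross from above the floor to below it, and both PLAU, both SERPINE2 and both F2R probe sets stay left of both floors.

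The 2 plasminogen activators differed in whether they could be measured. PLAT, which makes plasmin mainly on fibrin, has 1 probe set, 201860_s_at. It gave 118.4 on the control array, which is 85.6% of that array's floor, and 429.2 on the silenced array, which is 3.92 times the floor there. PLAT was therefore at least 3.10-fold higher after silencing, with a log2 ratio of at least 1.63. Of the 10514 measured genes, 71, PLAT included, had a ratio this high. PLAT counts as measured only through the silenced array, so this place describes its bound and is no support for a difference. In RNA from whole cultures, more cells with a transcript and more of it per cell cannot be told apart, here and in all that follows. The suffix _s_at marks a probe set that matches several transcripts, and no other PLAT probe set was available to set beside it. PLAU, the urokinase gene, has 2 probe sets and neither reached the floor. 205479_s_at gave 7.6 in the control and 12.1 after silencing. 211668_s_at gave 14 and 39.7, and the higher of these is 36.2% of the floor. Both PLAU signals were numerically larger on the silenced array, but values under the floor have no order and give no ratio.

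PLAUR encodes the membrane-anchored receptor for urokinase. It was higher on the silenced array with all 3 of its probe sets, each above both floors. 210845_s_at went from 863.4 in the control to 2002.7 after silencing, a log2 ratio of 1.21 or 2.32-fold. 211924_s_at went from 564.1 to 1846.5, a log2 ratio of 1.71 or 3.27-fold. 214866_at went from 152.4 to 724.1, a log2 ratio of 2.25 or 4.75-fold. The 3 probe sets thus shared a direction but not a size, with an SD of 0.517 between them on the log2 scale, above the 0.32 found over genes in general. The largest ratio came from the probe set whose control signal was 1.10 times the floor, and the smallest from the one whose control signal was 6.24 times the floor. Of the 23611 measured probe sets, 393 had a ratio at least as high as the smallest PLAUR ratio and 34 at least as high as the largest.

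The promoter of PLAUR is shown with a match to the motif of AP-1, the JUN and FOS family of transcription factors. This motif was chosen after the values of PLAUR and JUN were seen. Whether JUN has a part in the PLAUR difference was not tested. The promoter of PRSS12, which went the other way, is shown for contrast. Both are the 250 bases before the start of the gene in RefSeq on GRCh38.p14, on the minus strand, 5' to 3'. PLAUR is at chr19:43670170-43670419 and PRSS12 at chr4:118353004-118353253. Capitals mark the AP-1 motif TGANTCA in PLAUR and the GC box GGGCGG, on either strand, in PRSS12.
PLAUR: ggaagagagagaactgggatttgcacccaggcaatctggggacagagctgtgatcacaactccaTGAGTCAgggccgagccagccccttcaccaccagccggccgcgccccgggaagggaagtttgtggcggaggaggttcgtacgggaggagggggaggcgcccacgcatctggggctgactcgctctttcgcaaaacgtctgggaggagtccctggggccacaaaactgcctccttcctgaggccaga
PRSS12: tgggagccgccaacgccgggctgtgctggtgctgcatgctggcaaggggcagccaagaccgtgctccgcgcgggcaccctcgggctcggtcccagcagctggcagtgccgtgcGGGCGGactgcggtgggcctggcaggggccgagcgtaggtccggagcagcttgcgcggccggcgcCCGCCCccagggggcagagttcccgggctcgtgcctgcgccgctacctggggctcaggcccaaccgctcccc

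This motif, TGANTCA, reads the same on both strands and was found once in the PLAUR window, from 186 to 180 bases before the start. It was found in 6.57% of the 35116 promoter windows of this length. Among the windows of the 9 genes, the table holds 8 for 6 of them, and SERPINB5 was the other gene with a match, from 146 to 140 bases before its start, although its signal differed little between the arrays. The PLAU, SERPINE2, F2RL1 and PRSS12 windows had none. The GC box was found 2 times in the PRSS12 window and 0 times in that of PLAUR, and in 42.6% of all windows. PLAU, SERPINE2, F2RL1 and SERPINB5 also had windows with GC boxes, so this motif does not set PRSS12 apart from the other genes. A TATA box, searched as TATAAA on both strands, was found in none of the 8 windows and in 10.7% of all windows. The CCAAT box, searched under its own letters on both strands, was in neither printed sequence and in 32.0% of all windows. A match describes the letters only. Whether AP-1 binds at PLAUR, or any factor at the GC boxes of PRSS12, in these cells was not tested.

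Among the serpins, SERPINE2 was not measurable and SERPINB5 was. SERPINE2, also called protease nexin-1, inhibits thrombin, urokinase and plasmin. Its probe set 212190_at gave 44.4 in the control and 49.2 after silencing, and 227487_s_at gave 16.2 and 35.2, all under the floors. SERPINB5, or maspin, is a serpin known as a tumour suppressor in the breast that is thought to act without inhibiting proteases. Its probe set 204855_at gave 1429.3 in the control and 1685.5 after silencing, a log2 ratio of 0.24 or 1.18-fold. That difference is smaller than the spread between probe sets of one gene. The other SERPINB5 probe set, 1555551_at, gave 16.9 and 47.6, under the floor on both arrays.

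The protease-activated receptors gave no ratio. F2R, the thrombin receptor known as protease-activated receptor 1, has 2 probe sets. 1569642_at gave 14.8 in the control, 10.7% of the floor, and 84.7 after silencing, 77.3% of the floor. 203989_x_at gave 31.1 and 1.5. The suffix _x_at marks a probe set that may also bind transcripts of other genes. The F2R signals pointed in opposite directions between the 2 probe sets, and all 4 lay under the floor, so no difference in F2R was detectable on these arrays in either direction. F2RL1 encodes protease-activated receptor 2, which trypsin and matriptase cut, and has no expression values here because no probe set is named for it. The remaining family members, F2RL2 with signals of 55.7 and 3.6 and F2RL3 with 1.5 and 2.0, were also under the floor on both arrays. F2R, F2RL1 and F2RL2 lie next to each other on chromosome 5.

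The proteases ST14 and PRSS12 differed from each other. ST14 encodes matriptase, a protease anchored in the membrane of epithelial cells that can activate pro-urokinase and protease-activated receptor 2. Its probe set 202005_at gave 3690.1 in the control and 2838.4 after silencing, a log2 ratio of -0.38. 216905_s_at gave 1497.9 and 1234.3, a log2 ratio of -0.28. Both ST14 ratios were below 0 and close to each other, with an SD of 0.0702 between the 2 probe sets. The silenced signals were 76.9% and 82.4% of the control signals, which is 1.30-fold and 1.21-fold lower. The remaining ST14 probe set, 216906_at, gave 10.8 and 20.0, under the floor on both arrays.

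PRSS12 encodes neurotrypsin, a secreted serine protease best known from neurons, where it cleaves agrin. Its probe set 213802_at gave 384.4 in the control and 80.1 after silencing. The second PRSS12 probe set, 205515_at, gave 307.5 and 53.9. Both were above the floor on the control array and under it on the silenced array. PRSS12 was thus at least 3.51-fold lower by the first and at least 2.81-fold lower by the second, with log2 ratios of at most -1.81 and -1.49. Of the 10514 measured genes, 28, PRSS12 included, had a ratio this low. PRSS12 counts as measured only through the control array, so this place describes its bound and is no support for a difference. The control signals were 2.78 and 2.22 times the floor, so these bounds rest on modest signals.

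**Figure D2:**
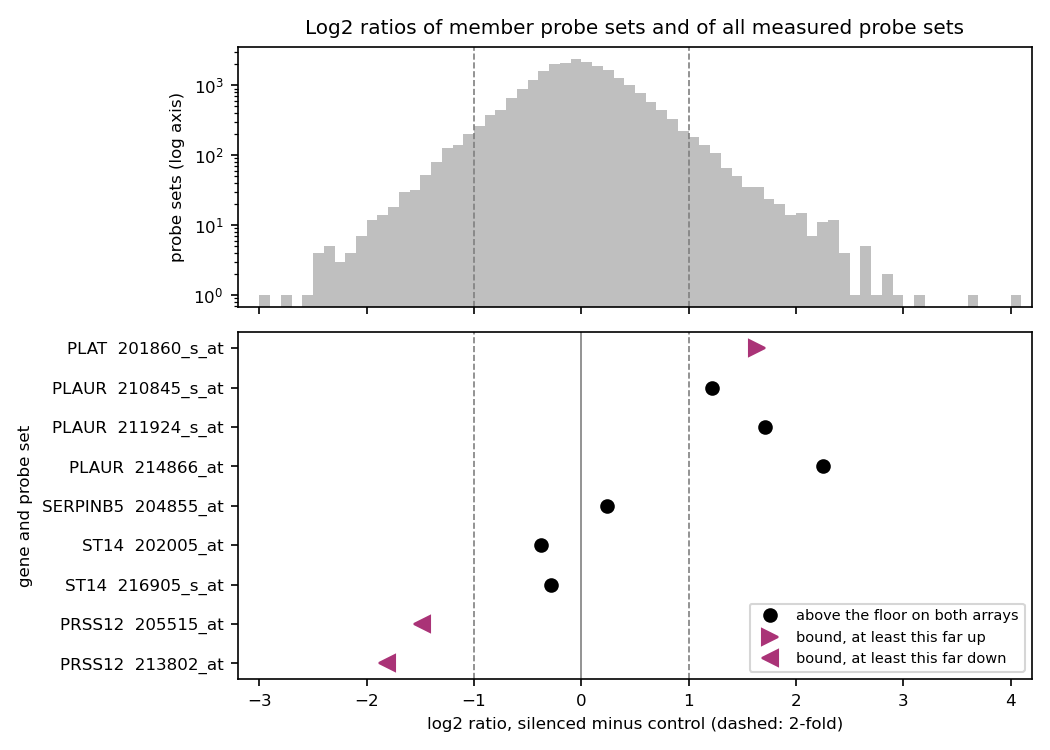
Upper panel, the number of measured probe sets (log axis) in each step of 0.1 of the log2 ratio, silenced minus control. Lower panel, the ratios of the 9 measured probe sets of the 9 genes on the same axis, with arrowheads for bounds. The PLAUR points at 1.21, 1.71 and 2.25 and the PLAT bound at 1.63 lie beyond the 2-fold line on the right, the PRSS12 bounds at -1.49 and -1.81 beyond the one on the left, and SERPINB5 and ST14 near the middle of the distribution.

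Set beside all features, 4 of the 9 measured probe sets passed 2-fold upwards and 2 downwards, while 3.12% of the 23611 measured probe sets were higher and 3.09% lower by that rule, 6.21% in either direction. For PLAT and PRSS12 the call is a bound. Taking the brightest probe set of each, the 5 genes had a median log2 ratio of 0.24, and all genes -0.02. The probe sets of PLAUR, like those of PRSS12, share a target and are not separate observations. Among probe sets above both floors, 7.17% passed 2-fold at a geometric mean signal from 250 to 1000, and 6.68% from 1000 to 4000, which are the ranges that hold the PLAUR, SERPINB5 and ST14 probe sets.

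**Figure D3:**
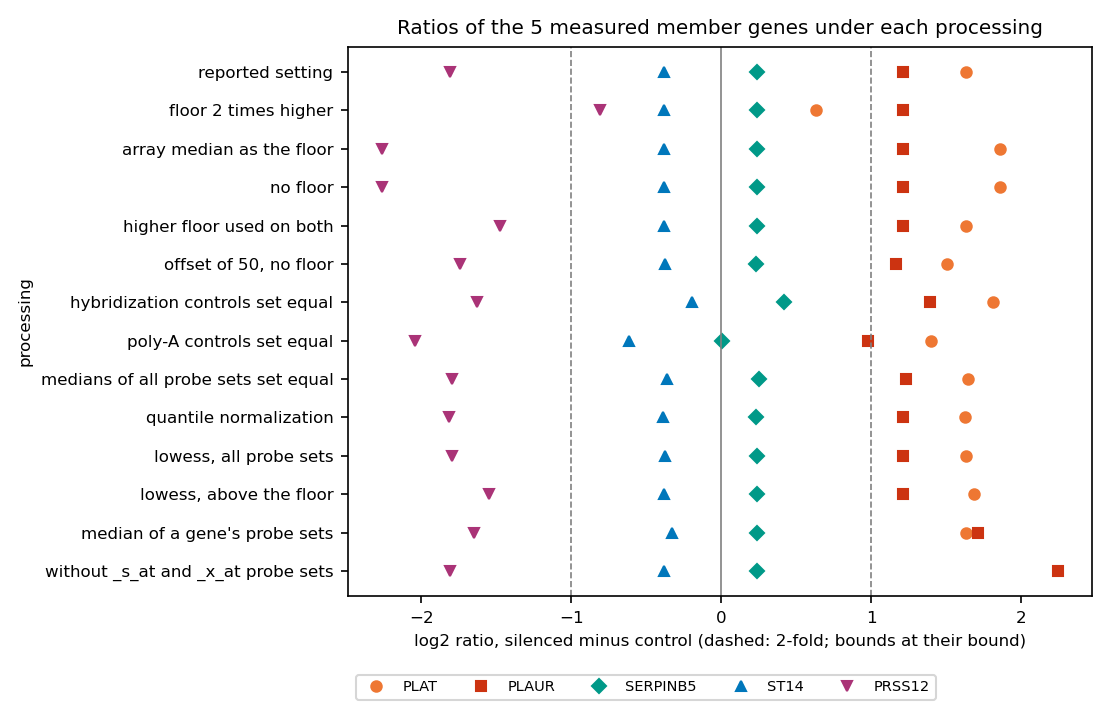
Log2 ratio, silenced minus control, of the 5 measured genes under the reported processing and 13 alternatives, with bounds plotted at their bound. PRSS12 stays left of 0 and PLAT and PLAUR right of it throughout, and the 2-fold line is missed by PLAT and PRSS12 with a floor 2 times higher and by PLAUR, at 0.98, with the poly-A controls set equal. PLAT has no point without _s_at and _x_at probe sets.

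Over the alternatives the ratio of PLAUR ran from 0.98 to 2.25 on the log2 scale and passed 2-fold in 12 of 13. That of PLAT ran from 0.63 to 1.86 and passed in 11 of 12, its single probe set being left out of 1 alternative by its suffix. That of PRSS12 ran from -2.26 to -0.81 and passed in 12 of 13. SERPINB5, from 0.0044 to 0.42, and ST14, from -0.61 to -0.20, passed in none. Over the 11 alternatives that bear on single probe sets, the PLAUR probe set 210845_s_at ran from 0.98 to 1.40, 211924_s_at from 1.48 to 1.89 and 214866_at from 1.39 to 2.43. The last became a bound with a floor 2 times higher. The PRSS12 probe sets ran from -2.51 to -0.49 and from -2.26 to -0.81, and both reached their lowest value without a floor. Without a floor the F2R probe sets gave log2 ratios of 2.52 and -4.37, and with an offset of 50 in its place 1.06 and -0.66, opposite in direction and from signals under the floors. The alternatives that moved all genes most were scalings on spiked controls. Setting the hybridization controls equal put the median of all genes at 0.17, and of all genes past 2-fold 75.9% were then higher, against 51.9% with the deposited scaling. Setting the poly-A controls equal put the median at -0.25, with 22.7% higher. Relative to the median of all genes, PLAUR was at 1.23, PLAT at 1.65 and PRSS12 at -1.80 under both.

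Other genes of the same pathways were taken from 9 lists of 128 genes in all, of which 121 have a named probe set and 70 were measured. Of these, 4 (5.71%, beside 3.31% of all genes) passed 2-fold upwards and 1 (1.43%, beside 3.07%) downwards. Medians of these lists are given over genes whose ratio has a direction, which came to 0.17 for the 65 such genes of the lists and 0.0034 for 10162 genes in all.

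Plasminogen and its binding sites on the cell surface held no gene past 2-fold. Plasminogen itself, PLG, was under the floor, at 14.7 and 11.5. The other 8 genes were measured, 3 of them above 0 and 4 below, with a median log2 ratio of -0.12 over these 7. The farthest from 0 were HNRNPU, an RNA-binding protein, at -0.35, and the plasminogen receptor PLGRKT, at -0.27. S100A10, which binds plasminogen at the membrane together with annexin A2, gave 44404.7 and 40962.0, a log2 ratio of -0.12. ANXA2, which encodes annexin A2, stood in the list with a probe set near the floor that gives a bound with no direction. Its 3 _x_at probe sets, set aside by the rule for choosing probe sets, were bright on both arrays, from 31262.8 to 33572.9. They gave log2 ratios of 0.05 to 0.09.

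Inhibitors of the activators and of plasmin were almost absent from the measured genes. Of 8 with a named probe set, 7 were under the floor on both arrays. SERPINB8 was above it on the silenced array only, and was at least 1.17-fold higher there than on the control array. Of 10 clade B serpins related to SERPINB5, 8 were under the floor. SERPINB1, an inhibitor of neutrophil proteases, went from 6535.6 to 12757.8, a log2 ratio of 0.97 that stopped short of 2-fold and passed it, at 1.15, with the hybridization controls set equal, and its 2 other probe sets above both floors gave 0.64 and 0.60.

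Clearance receptors and partners of PLAUR had no gene past 2-fold among 10 measured by their brightest probe sets, with a median of -0.06 over 8 with a direction. LRPAP1, a chaperone of these receptors, was at -0.01 on its brightest probe set, with 3429.3 and 3407.0. Its 2 other probe sets both gave -1.09, from 268.8 to 126.3 and from 463.0 to 218.1, so that its probe sets disagree and it was past 2-fold, at -1.09, by their median. The integrin subunits ITGA5, at -0.39, and ITGAV, at -0.30, were the farthest from 0. LRP1, which clears protease and inhibitor complexes, gave 103.2 and 138.3, a bound with no direction.

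The list of the protease-activated receptor family, its G proteins and arrestins had 15 measured genes, 1 of them at least 2-fold higher and 0 lower with the deposited scaling, and a median of 0.08. PLCB1, a phospholipase that acts downstream of Gq, was 2.55-fold higher, with signals of 410.6 and 1047.7 on its only measured probe set. GNAQ, the alpha subunit of Gq, had a log2 ratio of -0.92, which became -1.15 with the poly-A controls set equal, and all 5 of its probe sets were lower, from -1.22 to -0.49. TMED2, a trafficking protein that holds a pool of protease-activated receptor 2 at the Golgi, had -0.81, and its 3 probe sets ran from -1.03 to -0.81. It was past 2-fold, at -1.04, on the same poly-A scaling, and at -1.03 without _s_at and _x_at probe sets. ARRB1, an arrestin, showed 3 probe sets higher and 3 lower, from -1.30 to 1.14, and so no settled direction.

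Proteases that cut these receptors were mostly under the floor, 15 of the 22 with a named probe set. Thrombin (F2), with 13.1 and 7.9, was one of them. MMP1, a collagenase that can cut F2R, was 4.96-fold lower, with signals of 22581.0 and 4554.6. KLK6, a kallikrein-related peptidase, was 2.45-fold higher, with 550.9 and 1350.4. Each has 1 measured probe set. The trypsinogen genes PRSS2, at 0.40, and PRSS3, at -0.33, are near-identical copies read by _x_at probe sets and cannot be told apart with certainty. Of the 6 genes of this list with a direction, 3 lay above 0 and 3 below.

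Genes that start or control coagulation at the cell surface had 4 measured members, none past 2-fold, with a median of 0.41. F3, PROCR and F5 were above both floors and had ratios above 0 on their brightest probe sets. F8, at 109.4 and 178.1, was above the floor on the silenced array only. Its ratio of at least 0.36 could count only upwards, so its direction is no separate result. Tissue factor, F3, which starts thrombin formation, went from 550.8 to 949.9, a log2 ratio of 0.79. PROCR, the receptor for protein C, went from 1671.3 to 2286.7, a log2 ratio of 0.45.

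Membrane-anchored proteases, their inhibitors and substrates had 10 measured genes, 1 at least 2-fold higher and 0 lower, with a median of 0.26. TMPRSS4, a membrane serine protease, went from 476.1 to 1648.6, which is 3.46-fold higher on its only measured probe set. TMPRSS13, above the floor on the silenced array only, was at least 1.87-fold higher and passed 2-fold with the hybridization controls set equal. PRSS8, or prostasin, which acts together with ST14 in epithelia, went from 1650.2 to 2759.9, a log2 ratio of 0.74. The Kunitz-type inhibitors of ST14 had ratios slightly above 0, SPINT1 at 0.25 with signals of 2932.8 and 3483.6, and SPINT2 at 0.28 with 15284.0 and 18510.3, and 1 of the 2 SPINT1 probe sets turned below 0 with the poly-A controls set equal. Both of these are within the spread between probe sets of one gene.

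Transcription factors known at the promoters of PLAU and PLAUR were all measured, 14 of 14, with 1 at least 2-fold higher, 0 lower and a median of 0.18 over 13 with a direction. JUN was 2.14-fold higher, from 896.1 to 1916.8, and its 4 probe sets ran from 0.88, which is a bound, to 1.34. It fell short of 2-fold with the poly-A controls set equal, at 0.86. Without _s_at and _x_at probe sets JUN was at least 0.88, a bound that does not show whether the ratio passes 2-fold. Its partners FOS, at -0.15, and FOSL1, at 0.54, and the related JUND, at 0.32, did not reach 2-fold. ETS2 went from 1855.2 to 3297.9, a log2 ratio of 0.83, and passed 2-fold with the hybridization controls set equal. Its other probe set above both floors gave 0.315. SP1, which binds GC boxes, was at -0.51 on its brightest probe set and was lower with all 4, from -1.05 to -0.51.

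**Figure D4:**
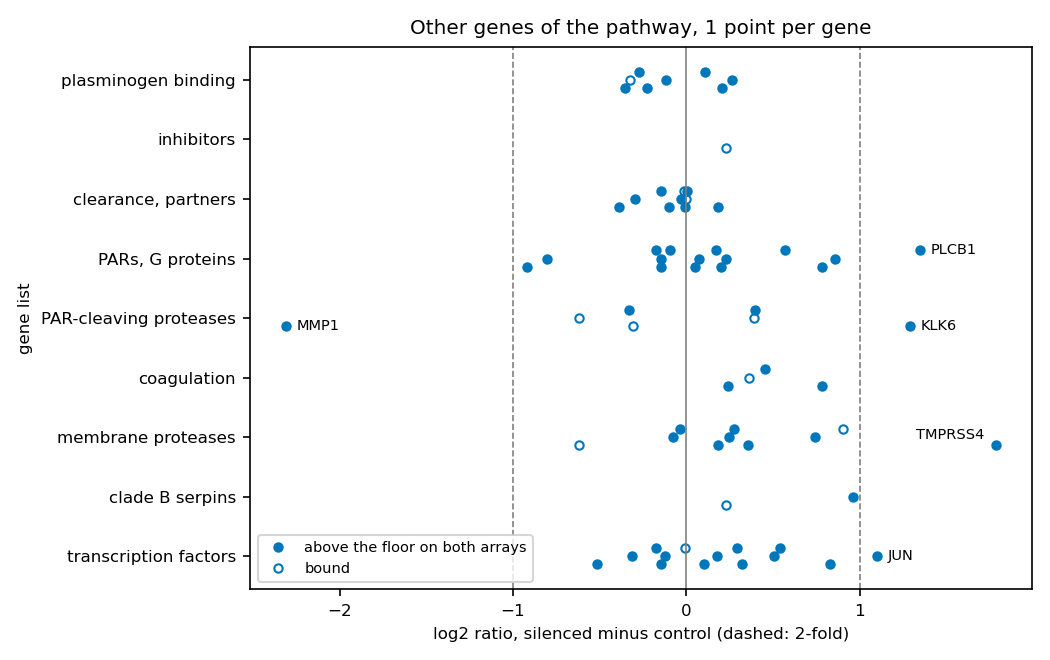
Log2 ratio, silenced minus control, of each measured gene in the 9 lists, 1 point per gene, filled where the gene is above the floor on both arrays and open where it gives a bound, some of which have no direction. Past the dashed 2-fold lines lie MMP1 on the left and PLCB1, KLK6, TMPRSS4 and JUN on the right, and all other points lie within 1 log2 unit of 0.

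Markers of the labelled cell type were present. All 6 epithelial markers were measured, among them EPCAM at 18866.5 and 19383.0, and all 6 had a ratio above 0, from 0.04 to 1.08, which became 4 of 6 with the poly-A controls set equal. CLDN4 was the highest of these, and the 6 summed to 87384.3 in the control and 106153.0 after silencing. Endothelial cells, which are a known source of PLAT, had 5 of 7 markers under the floor on both arrays, CDH5, VWF, KDR, TEK and CLDN5. ESAM, at 162.4 and 104.3, was above the floor in the control only. PECAM1, at 127.4 and 121.0, was above it on the silenced array only, a bound with no direction. The 7 markers summed to 456 in the control and 324 on the silenced array, mostly from ESAM and PECAM1. Neurons, a known source of PRSS12, had all 5 markers under the floor, with sums of 228 and 122. All 7 leukocyte markers with a named probe set were under the floor. Of 8 fibroblast markers 6 were under it, and COL1A1, at 816.3 and 1502.0 on its brightest probe set, made up most of their sum of 1137.7 and 1787.4. Its other probe sets above both floors disagreed, 1 going from 176.4 to 254.4 and the other, an _x_at probe set, from 195.5 to 133.5. The part of the higher epithelial signals in the results above was not tested.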

How the data were processed

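Biotin-labelled cRNA from Trizol-extracted RNA was hybridised to 2 one-colour arrays, per the labels' protocols, and titles gave the groups. The deposited values are linear intensity values; the submitters' processing notes name MAS5, and its version, scaling target and any filters were not given in the sources used here. Both arrays have a mean of 500.07 after trimming 2% at each end, so the deposited scaling was kept; a change in total RNA per cell cannot be seen.

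Of the 54675 probe sets, 41097 carry 1 gene symbol and were named; 1801 with several symbols and 11777 unlisted ones were not. By gene identifier 41043 matched RefSeq (GRCh38.p14), and 0 symbols were updated. Each gene was represented by its brightest probe set (mean log2 signal), with _x_at used only where there was no other. Signals were floored before log2. Python 3.11.15, pandas 2.3.3, numpy 2.4.6 and statsmodels 0.14.6 were used, and the procedure was tested on simulated data. No test between groups was made, since each has 1 array. The 9 genes, the lists and the markers were chosen with earlier results of these data known. Named are LGALS3, the 9 genes at every probe set and, in each list, up to 4 genes past 2-fold or otherwise the 2 farthest from 0 that were above the floor on both arrays, and genes under the floor on both; any other gene was chosen after its values were seen. Alternatives covered the floor, an offset of 50, the scaling and the choice of probe set.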

Additional observations from a re-analysis of the deposited data

How the results depend on the processing

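Among 13 alternatives, those below moved a call or turned a direction, and not every gene of the lists that moved is named. With a floor 2 times higher, 1 gene (PLAUR) and 3 probe sets were past 2-fold in place of 3 and 6, because the bounds of PLAT and PRSS12 shrink with the floor. Without a floor, 5 genes and 11 probe sets passed, the median of the genes was 0.73 and 4925 genes in all passed in place of 671, since signals of background size then count; 7 of the 9 lists also gained genes. With an offset of 50 in place of the floor, 4 genes and 7 probe sets passed, F2R being added at 1.06. With the array median as the floor, F2R became measured, with a log2 ratio of at least 0.28. Without _s_at and _x_at probe sets, PLAT drops out and the median of the genes turned to -0.0704. On the poly-A scaling PLAUR was at 0.98, short of 2-fold. Among the lists, TMPRSS13 and ETS2 passed upwards with the hybridization controls equal, and TMPRSS13 also with a curve fitted to probe sets above the floor. With the array median as the floor, TMPRSS2 passed upwards and TMPRSS15 downwards. With the offset of 50, TMPRSS2 and FOSB passed upwards and THBD downwards. JUN was short of 2-fold with the poly-A controls equal. Without _s_at and _x_at probe sets it had only a bound, of at least 0.88. The receptor family then had 3 genes past 2-fold in place of 1, and 2 with the hybridization controls equal. The median of the proteases that cut these receptors, -0.31 and itself a bound with no direction (F7), turned to 0.0323 with a floor 2 times higher, 0.0419 with the array median as the floor and 0.0565 with the higher floor on both arrays. The hybridization controls turned the medians of plasminogen binding sites to 0.0104 and of clearance receptors to 0.16. The poly-A controls turned those of the receptor family to -0.16 and of the transcription factors to -0.0917. These scalings shift every gene.

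No paired analysis was possible because each group has 1 array and the labels carry no replicate numbers. Signals near background limit PLAT, PRSS12, PLAU, SERPINE2 and F2R, for which a change below the floor would not be seen.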

Other observations

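The nearest protein-coding genes on the chromosome, 3 on each side by RefSeq's order on GRCh38.p14, were read off for the genes past 2-fold. Around PLAUR, 3 of 6 lay below both floors, and SMG9, CADM4 and ZNF428 had log2 ratios of -0.47, 0.58 and at least 0.94, none past 2-fold. Around PLAT, 2 of 6 were under the floor and the others, KAT6A, AP3M2, IKBKB and POLB, ran from -0.23 to 0.33. Around PRSS12, 3 of 6 were under the floor, and METTL14 and SEC24D had log2 ratios of -0.07 and -0.43, with SYNPO2 at least 0.29. Among the neighbours of all 9 genes 1 was past 2-fold, AP1S3, 3 genes from SERPINE2, with signals of 2583.9 and 5501.9 and a log2 ratio of 1.09. It was at 0.86 with the poly-A controls set equal and at 0.95 by the median of its probe sets, short of 2-fold. MRPL44, next to SERPINE2, was at -0.0641.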
